A study of Mus musculus with 15 samples.

Results

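The Egr transcription factors and the Nab proteins that bind them were read in a mouse T helper cell clone as 6 genes (Egr1, Egr2, Egr3, Egr4, Nab1 and Nab2) of 15964 on 3 Affymetrix chip types. Every probe set, a group of short probes for one transcript, was taken when its platform annotation named one of the 6 symbols alone. This gave 13 probe sets of 29131 that carry a single symbol, with 5 on chip type A, 3 on chip type B and 5 on chip type C. The cells were A.E7, a single clone of mouse CD4 T helper cells, so each group describes 1 clone under 1 set of conditions. The 5 groups were mock-treated cells, cells given anti-TCR antibody alone (titled Anergic), and cells given anti-TCR antibody with one of 3 inhibitor treatments. The first added cyclosporin A (CSA), which blocks the phosphatase calcineurin, and the second an unnamed inhibitor of protein kinase C (PKCi). The third (Combo) added Rapamycin, which blocks mTOR, PD98059, which blocks activation of MEK, and SB203580, which blocks p38 kinase. RNA of each group was pooled from 2, 4 and 6 h and read once on each chip type, 15 arrays in all, so no group has a replicate and no test between groups was possible. In such pooled RNA, fewer expressing cells and less RNA per cell cannot be told apart.

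Egr proteins are zinc finger factors that bind GC-rich DNA, and their genes are switched on quickly by receptor signals that pass through Ras, ERK and serum response factor or through calcium and NFAT. Nab1 and Nab2 have no DNA-binding domain. They bind Egr1, Egr2 and Egr3 and recruit chromatin repressors, and Nab2 is itself an Egr target, which makes it a feedback brake. In T cells Egr2 and Egr3 are known for their link to anergy, the unresponsive state that follows receptor signalling without costimulation, while Egr1 is known as an early activation gene.

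The promoter stretches shown here are those where the members differ in the letters that serum response factor or Egr proteins are known to bind. They are RefSeq sequences on build GRCm38.p6, written 5′ to 3′ on the strand of the gene, and capitals mark the matched motif. Of the 6 genes, 4 (Egr2, Egr4, Nab1 and Nab2) had entries in the promoter table, with 8 start sites among them. Egr1 and Egr3 had no entry and were not searched. The 250 bases before each start site were searched on both strands. The CArG box, the serum response factor site, was found before 4 of the 5 Egr2 start sites. It was found before no start site of Egr4, Nab1 or Nab2, and in 1.47% of 32851 such windows over all genes. Whether Egr1 or Egr3 hold it could not be read here. Of these windows 3 overlap and hold the same box at the same place, so the matches are 2 distinct boxes. The first Egr2 stretch lies 82 to 53 bases before the start site at 67537566 and the other the same distance before the start site at 67537869. The Egr core GCGTGGGC was found once before Nab2 and at 2 places before Nab1, but not before Egr2 or Egr4, against 1.37% of all windows. Nab2 is shown for all 250 bases before its start site, with the core 32 to 25 bases from it. In Nab1 the cores lie 140 to 133 and 109 to 102 bases from the start site. The letters GCCCACGC are the same core read on the opposite strand. The cyclic AMP response element TGACGTCA was in none of the 8 windows and in 1.55% of all windows. Its half-site TGACG was found before Nab1, Egr4 and the overlapping Egr2 windows, and in 17.8% of all windows. The NFAT core GGAAA was found before Egr4 and the same Egr2 start sites as the CArG box. It is a common sequence, found in 55.6% of all windows. A match is a description of the letters and not a measured binding site.
Egr2 chr10:67537484-67537513 (+): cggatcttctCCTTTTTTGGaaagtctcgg
Egr2 chr10:67537787-67537816 (+): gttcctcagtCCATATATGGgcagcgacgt
Nab2 chr10:127666704-127666953 (-): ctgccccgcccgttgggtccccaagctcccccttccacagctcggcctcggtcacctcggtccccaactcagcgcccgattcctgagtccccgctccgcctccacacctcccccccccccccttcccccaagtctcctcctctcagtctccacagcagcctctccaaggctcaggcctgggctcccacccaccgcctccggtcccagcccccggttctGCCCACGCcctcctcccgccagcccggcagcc
Nab1 chr1:52500570-52500599 (-): gccccgcggccGCCCACGCcgggatctgcg
Nab1 chr1:52500539-52500568 (-): cactcggccgcGCGTGGGCgggagccggag

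Values are the deposited probe set intensities. Each chip type was given a floor, its median intensity (51.1 on A, 69.5 on B and 55 on C), and dimmer readings were set to it before taking log2. The words rose and fell are used for genes with values 2-fold or more apart, the brighter being at 4 times the floor or above. Where the dimmer reading did not exceed the floor, the fold is a lower bound and is written as "at least". The error of a log2 ratio was taken from genes with bright probe sets on more than 1 chip type, which read the same RNA pools. With anti-TCR against mock its technical SD was 0.76, and for the inhibitors against anti-TCR it was 0.48 with CSA, 0.71 with PKCi and 0.55 with Combo. This SD holds the error of arrays and probe sets but not that between cultures.

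The 15 arrays were alike in scale, with 17.4% to 23.0% of probe sets at or above 4 times the floor and trimmed means within 0.242% of each other on a chip type. The T helper label was checked against its markers. Of 10 listed genes 9 were on the arrays, 7 or 8 of them were bright in every group, and their summed intensity ran from 7319 to 10296. Cd4 read 608 with anti-TCR and 610.2 with mock, and Cd5 was never above the floor. The markers did not all stay level: with anti-TCR against mock Cd3d (1050.2 to 511) and Cd3g (2570 to 1276) fell, and with CSA against anti-TCR Cd2 fell (1537 to 440.0), and their part in the results was not tested. No gene of the CD8 and NK, B cell, or erythroid and neutrophil lists was bright in any group, and Cd8a, Cd8b1 and Ncr1 stayed below the floor throughout. Of 7 macrophage and dendritic cell genes, 1 was bright, and the summed level of that list ran from 332 with Combo to 463 with CSA.

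Of the 13 member probe sets, 8 reached 4 times the floor in at least 1 group and 5 did not. All 6 genes kept at least 1 bright probe set, and a gene was read from the probe set with the highest mean. Anti-TCR alone raised 4 of the 6 genes and lowered none, while 11.4% of the 5803 genes measured rose and 13.9% fell. The 4 were Egr2, Egr3, Nab2 and Egr1. Counted from the highest ratio with the floor used, Egr3, Nab2 and Egr1 stood at places 10, 19 and 231, and no place is given for Egr2, whose ratio is a lower bound. The median log2 ratio of the 6 genes was 3.30, against -0.08 over all genes. The members were chosen with earlier results of these data known. Setting them against all genes, here and below, is therefore a description and no test.

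**Figure D1:**
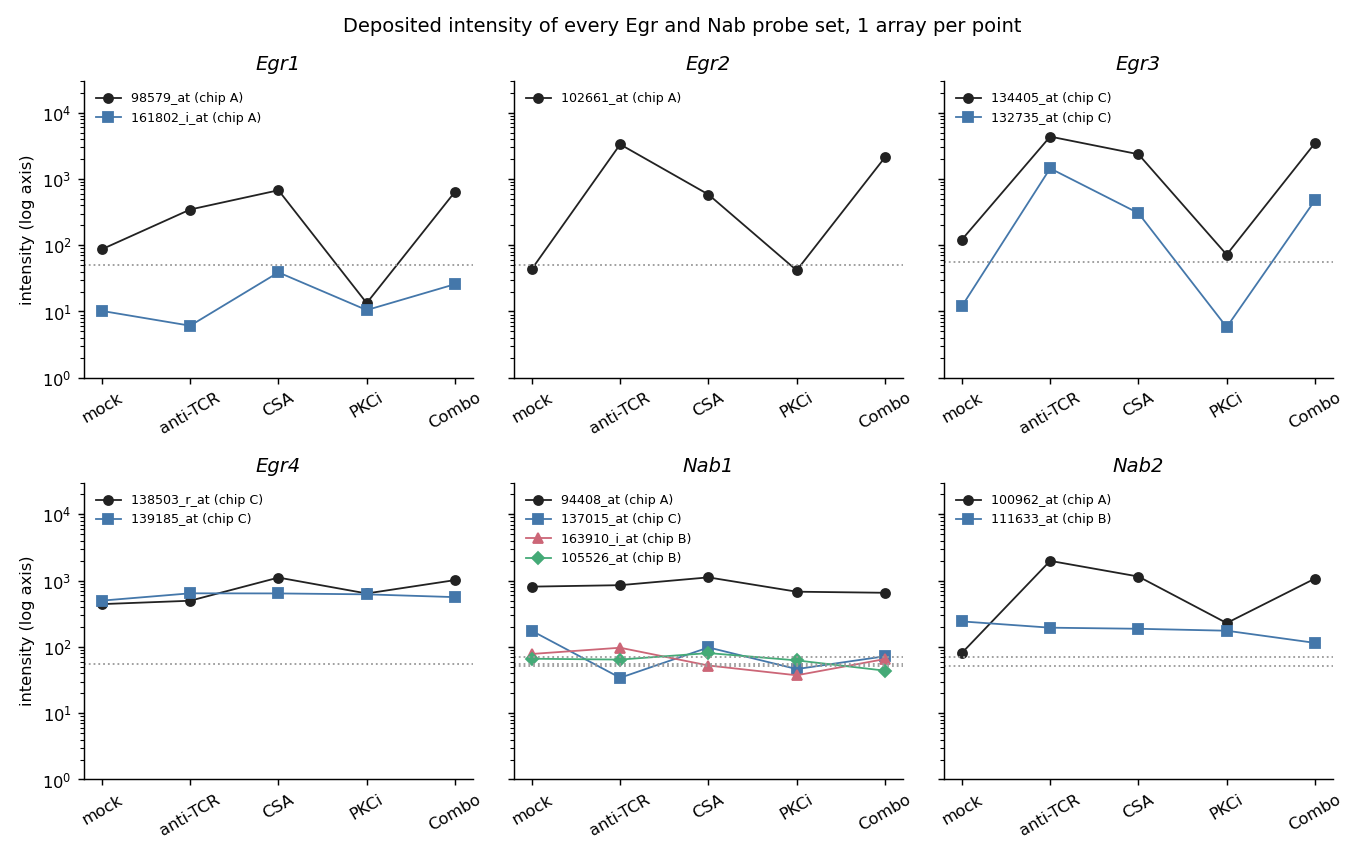
Deposited intensity (log axis) of each of the 13 probe sets in the 5 treatments, 1 array per point and 1 panel per gene, with dotted lines at the floor of each chip type shown. Egr2 and both Egr3 probe sets are high with anti-TCR, CSA and Combo and drop with PKCi, Egr1 is highest with CSA (675) and Combo (639), and the brightest Egr4 probe set runs from 442 with mock to 1112 with CSA.

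Egr2, the anergy-linked factor of the family, had a wide range of intensity over the treatments. Its single probe set read 43.8 with mock, 3325 with anti-TCR, 582 with CSA, 41.7 with PKCi and 2116 with Combo. The values with mock and PKCi lay below the floor, and the other 3 lay far above it. Egr2 rose at least 65.1-fold with anti-TCR. The step from anti-TCR down to Combo was 0.65 on the log2 scale, just over its SD of 0.55, and the step from Combo to CSA was 1.86. Against anti-TCR, CSA lowered Egr2 5.71-fold, so that 17.5% of its intensity was left, and it was still at least 11.4-fold above mock. PKCi lowered it at least 65.1-fold, to below the floor.

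Egr3, the factor most like Egr2 in its known role, was read by 2 bright probe sets on chip type C. The brighter read 121 with mock, 4354 with anti-TCR, 2359 with CSA, 72 with PKCi and 3470 with Combo. The dimmer read 12 with mock, 1442 with anti-TCR, 305 with CSA, 5.8 with PKCi and 476 with Combo. Both probe sets were highest with anti-TCR and lowest with PKCi, and both placed Combo above CSA. Egr3 rose 35.9-fold with anti-TCR on the brighter and at least 26.2-fold on the dimmer probe set. PKCi lowered it 60.5-fold on the brighter probe set and at least 26.2-fold on the dimmer one.

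The Egr3 probe sets disagreed on the size of the CSA and Combo differences. CSA against anti-TCR gave a log2 ratio of -0.88 on the brighter probe set, short of 2-fold, and -2.24 on the dimmer, a 4.73-fold difference. Combo against anti-TCR gave -0.33 on the brighter probe set, within its SD, and -1.60 on the dimmer, a 3.03-fold difference.

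Egr1, known as an early activation gene, had an order of treatments unlike that of Egr2 and Egr3. Its bright probe set read 86.9 with mock, 346 with anti-TCR, 675 with CSA, 13.4 with PKCi and 639 with Combo. It was highest with CSA and Combo, which lay 0.08 apart on the log2 scale, and lowest with PKCi, below the floor. Egr1 rose 3.98-fold with anti-TCR and fell at least 6.76-fold with PKCi against anti-TCR. CSA and Combo lay 1.95-fold and 1.85-fold above anti-TCR, beyond the SD but short of 2-fold. Against mock, the CSA value was 7.76-fold and the Combo value 7.35-fold higher. The other Egr1 probe set, with an i suffix that marks an incomplete probe design, stayed below the floor in every group, from 6.1 to 38.9.

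Egr4, a family member that lacks the Nab-binding region of the others, showed no rise with anti-TCR on either of its probe sets. Its brighter probe set, with an r suffix that marks a design made under relaxed rules, read 442 with mock, 497 with anti-TCR, 1112 with CSA, 640.1 with PKCi and 1018 with Combo. By that probe set Egr4 rose 2.24-fold with CSA and 2.05-fold with Combo against anti-TCR. Its other probe set, without a suffix, read 499 with mock, 644 with anti-TCR, 641 with CSA, 621 with PKCi and 564 with Combo. There CSA against anti-TCR gave a log2 ratio of -0.01 and Combo against anti-TCR -0.19, and no neighbouring pair of treatments differed beyond the SD. The calls for Egr4 therefore rest on the r-suffixed probe set alone. Without probe sequences, which of these probe sets reads the Egr4 transcript could not be told here.

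Nab2, the corepressor that Egr proteins are known to induce, rose with anti-TCR, as Egr2 and Egr3 did. Its bright probe set read 81 with mock, 1987 with anti-TCR, 1153 with CSA, 229 with PKCi and 1073 with Combo. It was highest with anti-TCR and lowest with mock, and CSA and Combo lay 0.10 apart on the log2 scale, within the SD. Nab2 rose 24.5-fold with anti-TCR. It fell 8.67-fold with PKCi against anti-TCR, to 11.5% of the intensity with anti-TCR alone, and remained 2.83-fold above mock. CSA and Combo left 58.0% and 54.0% of the intensity, differences that were short of 2-fold.

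The other Nab2 probe set, on chip type B, gave no such pattern. It read 243 with mock, 195 with anti-TCR, 188 with CSA, 176 with PKCi and 115 with Combo, all below the minimum of 278 for that chip type. Its log2 ratio of anti-TCR to mock was -0.31 against 4.62 on the bright probe set, so the Nab2 calls rest on 1 probe set of 2.

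Nab1, the paralogue of Nab2, passed the size rule in none of the comparisons with mock or with anti-TCR. Its bright probe set read 812 with mock, 854 with anti-TCR, 1120 with CSA, 681 with PKCi and 656 with Combo. The log2 ratio of anti-TCR to mock was 0.07, and no neighbouring pair of treatments in the order of its values differed beyond the SD. Its ends did: CSA lay 0.77 above Combo and 0.72 above PKCi on the log2 scale, with SDs of 0.50 and 0.54. The other 3 Nab1 probe sets did not reach the minimum in any group. One of them, on chip type C, read 175 with mock and 34.2 with anti-TCR, and the pair on chip type B ran from 37.3 to 97.2. With anti-TCR against mock, Nab1 and Nab2 differed by 4.54 on the log2 scale, with an SD of the difference of 1.07.

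**Figure D2:**
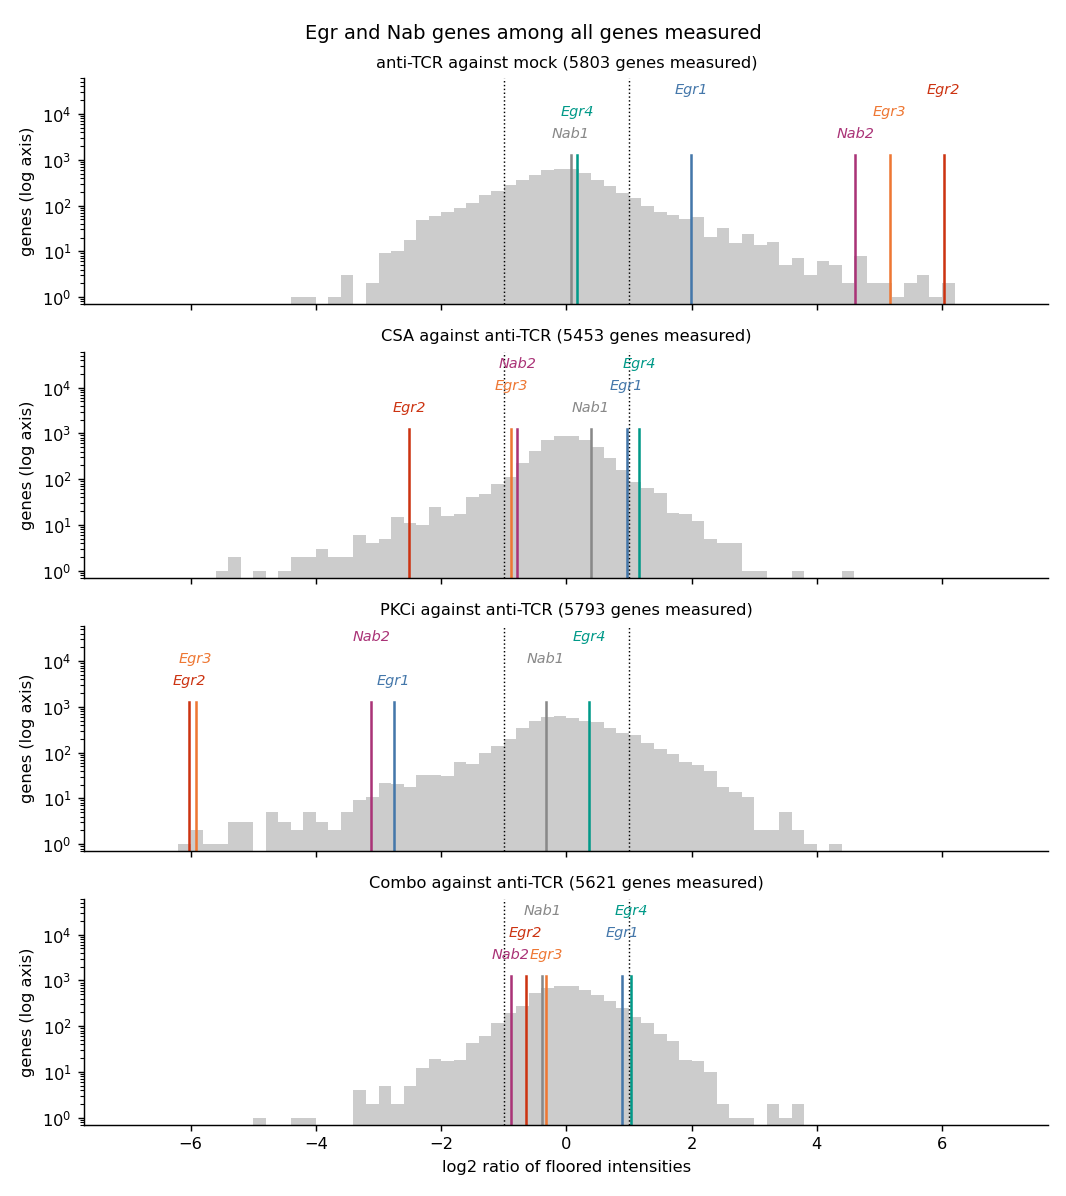
Histograms of the log2 ratio of floored intensities over all genes measured (log axis of gene number) in 4 comparisons, with a coloured line per member and dotted lines at 2-fold. Egr2, Egr3 and Nab2 lie in the upper tail with anti-TCR (6.02, 5.17 and 4.62) and in the lower tail with PKCi (-6.02, -5.92 and -3.12). Both Egr2 values are bounds set by the floor.

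The 3 inhibitor treatments were each given together with anti-TCR antibody. Each was compared with the same anti-TCR arrays. An error in those arrays would therefore enter all 3 comparisons and, with the opposite sign, the comparison with mock. No group had an inhibitor alone, so an effect on the receptor response and one on the level without it cannot be told apart. Whether the drugs blocked their targets was not tested.

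PKCi lowered Egr2, Egr3, Nab2 and Egr1, the 4 genes that anti-TCR had raised, and raised none of the 6. Over all genes 9.75% fell and 14.3% rose. From the lowest ratio and with the floor used, Egr3 and Nab2 stood at places 2 and 48 of 5793, and no place is given for Egr2 and Egr1, whose PKCi values lay under the floor. The median of the 6 genes was -2.94 with the floor used, against 0.03 over all genes. It rests in part on Egr1, whose ratio follows the floor. The log2 ratios of Egr2 and Egr3 were -6.02 and -5.92, but the floor sets that of Egr2 and with it their order: with 2 times the floor they were -5.02 and -5.31. Egr3 lay 2.80 below Nab2, with an SD of the difference of 1.01. Against mock, 3 of the 6 genes reached the minimum with PKCi. Of these Nab2 rose, while Egr4 (log2 ratio 0.53) and Nab1 (-0.25) did not pass the size rule, and over all genes 6.9% rose and 3.55% fell. Egr1, Egr2 and Egr3 were too dim in both groups to be compared.

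CSA lowered 1 of the 6 genes, Egr2, and raised 1, Egr4 on its r-suffixed probe set. Over all genes 5.34% fell and 4.84% rose, and with 6 genes a count of 1 is not set apart from those shares. Egr2 stood at place 49 of 5453 from the lowest, and the median of the 6 genes was -0.20 against 0.03 over all genes. The family did not move as one: Egr1 and Egr2 differed by 3.48 on the log2 scale, with an SD of the difference of 0.68. Egr2 also lay 1.63 below Egr3 as read by its brighter probe set, and 1.73 below Nab2. Egr3 and Nab2 differed by 0.10, within the SD. On the dimmer Egr3 probe set the log2 ratio of -2.24 was near that of Egr2 (-2.51). Against mock, 5 of the 6 genes rose with CSA and none fell, while 8.65% of all genes rose and 7.81% fell. These were Egr3 (19.4-fold), Nab2 (14.2-fold), Egr2 (at least 11.4-fold), Egr1 (7.76-fold) and Egr4 (2.52-fold, on the r-suffixed probe set).

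Combo, which includes a block of MEK activation, lowered none of the 6 genes as read by their brightest probe sets. It raised 1, Egr4 on its r-suffixed probe set. Over all genes 5.46% fell and 7.95% rose, and with 6 genes a count of 1 is not set apart from those shares. The median of the 6 genes was -0.35 against 0.02 over all genes. Egr2 read 63.6% and Egr3 79.7% of their intensity with anti-TCR alone. The log2 ratios were -0.65 for Egr2, -0.33 for Egr3, -0.89 for Nab2, -0.38 for Nab1 and 0.89 for Egr1, and none of these passed the size rule. Egr1 and Nab2 differed by 1.78, with an SD of the difference of 0.78. Against mock, 5 of the 6 genes rose with Combo and none fell, while 8.39% of all genes rose and 6.01% fell. Egr2 rose at least 41.4-fold, Egr3 28.6-fold, Nab2 13.3-fold, Egr1 7.35-fold and Egr4 2.30-fold on the r-suffixed probe set.

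The log2 ratio of inhibitor to mock, as a share of that of anti-TCR to mock, sets the members on 1 scale. For Nab2 83.0% was left with CSA, 80.8% with Combo and 32.5% with PKCi. For Egr3 on its brighter probe set 82.9% was left with CSA and 93.7% with Combo, and with PKCi the value lay below that of mock. On its dimmer probe set, with mock below the floor, 52.4% was left with CSA and 66.1% with Combo. For Egr2 58.3% was left with CSA and 89.2% with Combo, and these depend on the floor, as do those of the dimmer Egr3 probe set, since mock lay below it. For Egr1 the share was 148% with CSA and 145% with Combo.

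**Figure D3:**
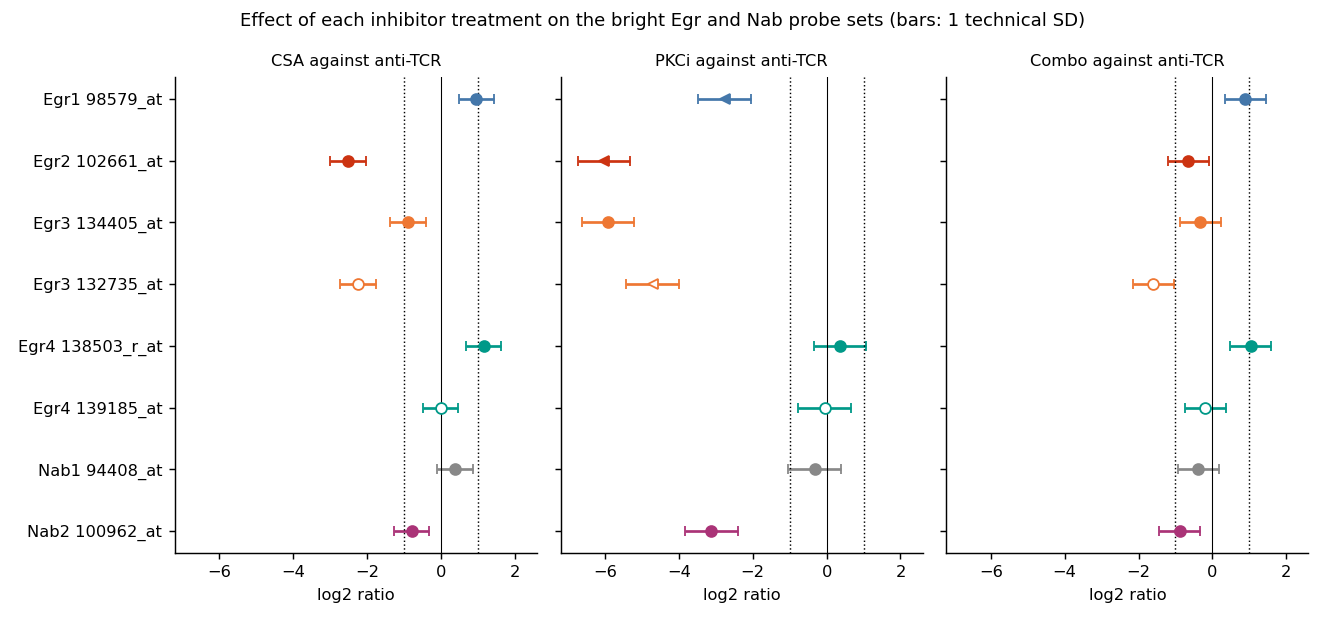
Log2 ratio of each inhibitor treatment to anti-TCR for the 8 bright probe sets, with bars of 1 technical SD and dotted lines at 2-fold. Open symbols mark the dimmer probe set of a gene. Triangles mark a ratio whose fold is a lower bound because of the floor, so that the log2 ratio lies there or further to the left. With CSA, Egr1 (0.97) and Egr2 (-2.51) lie on opposite sides of 0, and with PKCi Egr1, Egr2, Egr3 and Nab2 all lie below -2.

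A list of 28 genes that the literature names as targets of Egr or Nab proteins was read next, all of them on the arrays. With anti-TCR against mock 20 could be measured. Of these 10 rose and 3 fell, with a median log2 ratio of 0.99. The shares of all genes that rose or fell and their medians, given above for each comparison, are the background for these counts. The same background holds for the other lists below. The lists were also chosen with earlier results of these data known, so this contrast is a description and no test. Sema7a, a membrane-anchored semaphorin, rose 24.5-fold from 54.7 to 1341 (log2 ratio 4.62, and 2.10 on a further bright probe set). Tgfb1, an inhibitory cytokine gene, rose 12.7-fold from 178 to 2257. Tnf, an inflammatory cytokine gene, fell 2.52-fold from 335 to 133. Dgka, the kinase that removes diacylglycerol and which Egr2 and Egr3 are known to affect, fell 2.42-fold from 302 to 125. The remaining gene that fell was Tnfsf10 (2.38-fold), a death ligand named after its value was seen.

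With CSA against anti-TCR 8 of 19 target genes fell and 2 rose (median -0.57). Ndrg1, a gene linked to T cell anergy, fell 7.63-fold from 802 to 105, and Lag3, an inhibitory receptor gene, fell 7.02-fold from 644 to 91.7. Tnf rose 6.72-fold to 892, and Cd44, an adhesion receptor gene, rose 2.2-fold to 6533. With PKCi 10 of 20 fell and 2 rose (median -0.99). Sema7a fell at least 26.2-fold (log2 ratio -4.71, and -1.62 on its further probe set), Ndrg1 6.19-fold and Lag3 5.27-fold, while Tnf rose 2.57-fold and Dgka 2.82-fold. With Combo 3 of 20 fell and 3 rose (median -0.27). Ndrg1 and Lag3 did not pass the size rule there, with log2 ratios of -0.20 and -0.14, and Tnf rose 13.4-fold to 1786. Sema7a fell 2.91-fold with Combo, but its further probe set gave -0.89, short of 2-fold. The other genes past the rule, named after their values were seen, were Tnfrsf9 and Cdkn1a, which fell, and Icam1 and Tnfsf10, which rose. A further bright probe set of Ndrg1 (s-suffixed) gave -2.27 with CSA, that of Sema7a gave -0.98 and that of Cd44 gave 1.43. The difference in counts between the inhibitors was not tested.

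**Figure D4:**
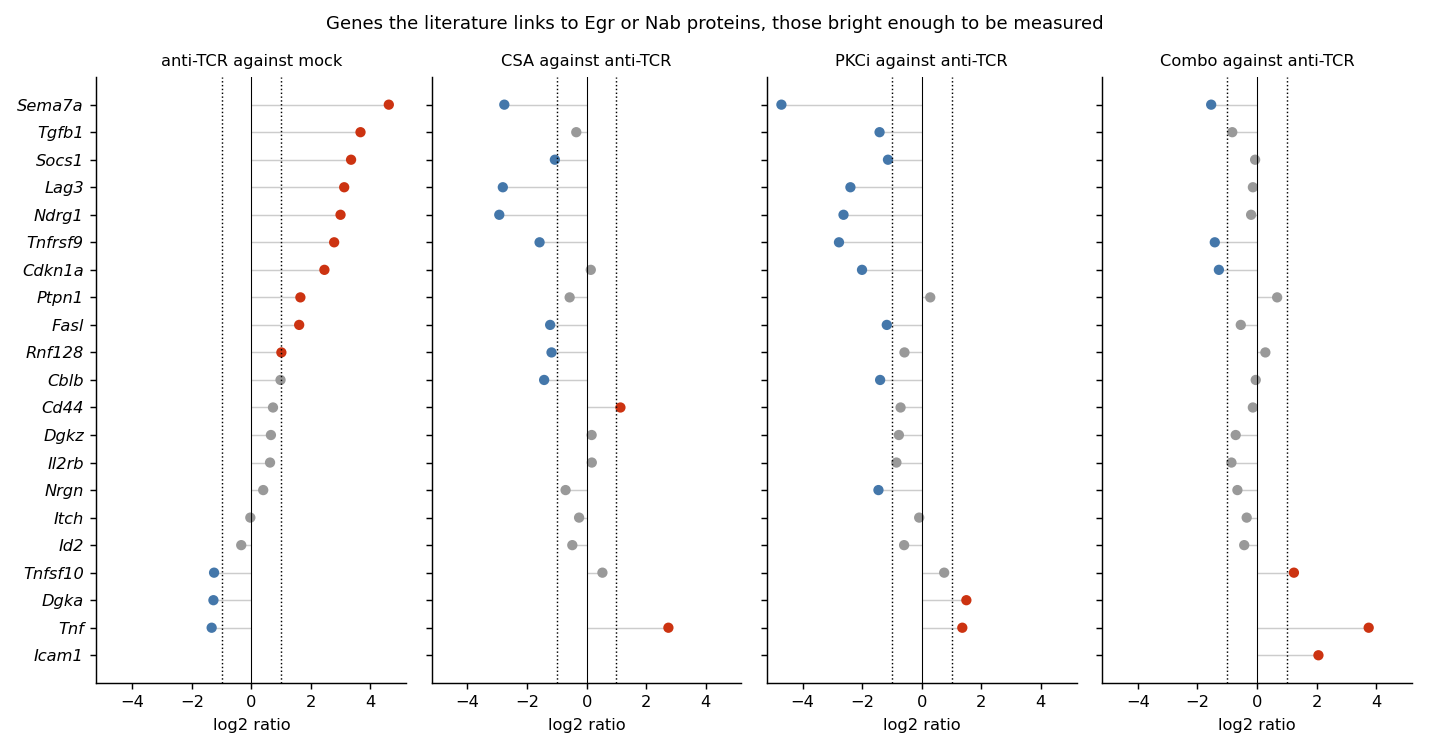
Log2 ratios of the measured genes of the Egr and Nab target list in 4 comparisons, 1 point per gene and comparison, with red for at least 2-fold higher, blue for at least 2-fold lower, grey for less, and dotted lines at 2-fold. Sema7a is highest with anti-TCR (4.62) and lowest with PKCi (-4.71), and Lag3 and Ndrg1 lie near -3 with CSA and near 0 with Combo.

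Of 24 names for factors and kinases upstream of Egr transcription, 17 were on the arrays. With anti-TCR the median of the 13 that could be measured was -0.54, and 1 rose while 4 fell. Over all genes the median was -0.08, and 11.4% rose while 13.9% fell. Nfatc1, an NFAT factor whose short form is induced by its own pathway, rose 6.54-fold from 342 to 2236, a log2 ratio of 2.71, with 1.69 and 3.84 on further bright probe sets. Srf, the factor that binds the CArG box, read 341 and 589 (log2 ratio 0.79), short of 2-fold. Mrtfa, a cofactor of Srf, fell 3.10-fold from 505 to 163 and Nfatc2, an NFAT factor already present in resting cells, fell 2.72-fold from 1150 to 423. Named after their values were seen, Nfatc3 and Creb1 also fell, 2.57-fold and 2.36-fold.

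With CSA 2 of 11 upstream genes rose and 2 fell (median 0.26). Nfatc1 fell from 2236 to 223 (log2 ratio -3.33), and further bright probe sets gave log2 ratios of -2.82 and -4.33. Nfatc2 rose 4.29-fold to 1815 and Nfatc3 rose 2.41-fold to 232. Rasgrp1, which activates Ras on diacylglycerol, fell 2.66-fold from 399 to 150. A further Rasgrp1 probe set, i-suffixed, showed no such fall, at 158 with anti-TCR and 195 with CSA, but was too dim there to be compared. With Combo against anti-TCR that probe set gave a log2 ratio of 1.10. With PKCi 3 of 11 rose and 1, Nfatc1, fell (8.08-fold), and the 3 that rose were Nfatc3 (2.59-fold), Mrtfa (2.30-fold) and Mapk14 (2.14-fold), the p38 kinase gene, which was read on a suffixed probe set and named after its value was seen. With Combo 2 of 11 rose and 1, Nfatc1, fell (2.73-fold), though its further probe sets gave 0.15 and -1.58, so that call depends on the probe set. Named after their values were seen, the 2 were Creb1 (2.11-fold) and Mapk14 (2.05-fold).

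Nab proteins repress through the NuRD complex, and of 13 listed subunits 10 were on the arrays and 9 were measured. With anti-TCR 2 rose and 1 fell (median 0.42), while 11.4% of all genes rose and 13.9% fell (median -0.08). With 9 genes, counts this small are not set apart from those shares. Mta2 rose 2.25-fold from 180 to 405 and Rbbp7, a histone-binding subunit, 2.13-fold from 1256 to 2674. Mbd2, which binds methylated DNA, fell 2.37-fold from 678 to 286, and Mta3 read 913 and 802. With CSA none of the 9 passed the size rule, at a median of 0.05. Mbd2 gave 0.57, Mta3 0.25, Mta2 -0.46 and Chd4, the ATPase subunit on a suffixed probe set, -0.21. With PKCi and with Combo 1 of the 9, Rbbp7, fell (2.89-fold and 2.02-fold).

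Genes whose pattern over the 5 treatments was nearest to each member were found among 6331 bright genes by the root mean square difference of log2 values, each centred on its own mean. The measure was taken for the 4 members that spanned at least 4-fold, and it is a description over 5 arrays. Nearest to Egr1 were Bcl6 (0.41), a transcriptional repressor, Rgs16 (0.61), a regulator of G protein signalling, and Gpr65 (0.68), a proton-sensing receptor. Bcl6 read 54.1 with mock, 308 with anti-TCR, 481 with CSA, 54.8 with PKCi and 301 with Combo. Both genes were higher with CSA than with anti-TCR, but with Combo Bcl6 was near its anti-TCR value while Egr1 was near its CSA value. Nearest to Egr2 were the orphan nuclear receptor Nr4a3 (0.43), the chemokine Ccl3 (0.61) and Nr4a1 (0.74). Nr4a3 read 74.4 with mock, 4965 with anti-TCR, 1160.2 with CSA, 149 with PKCi and 2676 with Combo. Nearest to Egr3 were Nr4a1 (0.38), the histone demethylase Kdm6b (0.54) and Rhbdf2 (0.59). Nearest to Nab2 were Phlda1 (0.38), the NF-kB cofactor Bcl3 (0.52) and the enkephalin precursor Penk (0.52, on a suffixed probe set). Phlda1 read 97.5 with mock, 2566 with anti-TCR, 2487 with CSA, 511 with PKCi and 1528 with Combo.

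Among the members themselves, Egr2 and Egr3 were nearest to each other at 0.60. Nab2 lay 1.16 from Egr2, 1.17 from Egr3 and 0.98 from Egr1, and Egr1 lay 1.49 from Egr2. The likeness holds for the brightest probe set of a gene. On further bright probe sets Nr4a1 lay 2.47 from Egr3, Nr4a3 1.76 from Egr2, Rgs16 1.29 from Egr1, Bcl3 1.36 from Nab2, and Penk 0.61 and 1.10 from Nab2.

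**Figure D5:**
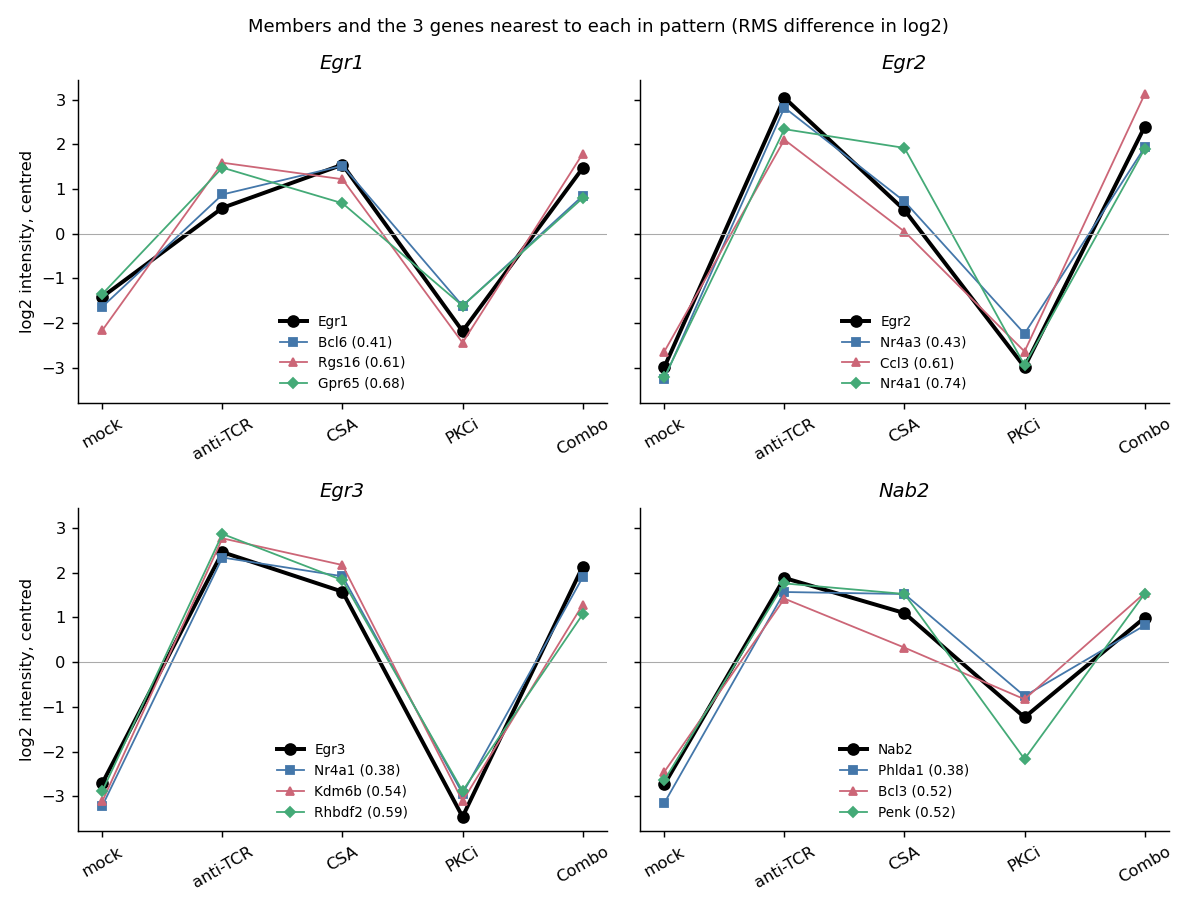
Log2 intensity of 4 members (black) and of the 3 genes nearest to each, centred on each gene's mean over the 5 treatments, with the root mean square difference in brackets. Egr2 with Nr4a3 (0.43) and Egr3 with Nr4a1 (0.38) are high with anti-TCR and low with mock and PKCi, while Egr1 and Bcl6 (0.41) lie higher with CSA than with anti-TCR.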

How the data were processed

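RNA of the A.E7 clone, pooled from 3 time points per treatment, was hybridised once per treatment to each of 3 chip types. The deposited values are probe set intensities on a linear scale, and the sources used here do not name the software that made them. They were used as deposited, with no further scaling in the main setting. Values under the median of their chip type were raised to it and log2 ratios taken (Python 3.11.15, numpy 2.4.6, pandas 2.3.3, matplotlib 3.10.9). The platform annotation gave 29131 of 36701 probe sets 1 symbol, 724 several and 6846 none. The probe set of highest mean intensity stood for a gene. A comparison took in genes with at least 1 of both values at 4 times the floor or above, and a difference of 2-fold or more counted as a change. For the technical SD, genes bright on several chip types were used: the SD of the differences between their log2 ratios (792 to 867 differences in a comparison) was divided by the square root of 2. The calling was tried on simulated data, with changes planted only in genes bright with mock and with less noise than the technical SD. It was therefore not tried on rises from near the floor, where Egr1, Egr2, Egr3 and Nab2 lay with mock.

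Named genes are the members, the 2 highest and 2 lowest of each list in anti-TCR against mock and in CSA against anti-TCR, and the 3 genes nearest in pattern to each member that spanned 4-fold. Others are marked as named after their values were seen. The lists are targets of Egr and Nab proteins, upstream factors, NuRD subunits, other factors of GC-rich sites, and cell type markers. Members and lists were chosen with earlier results of these data known. Alternatives were quantile, trimmed mean and median scaling, a floor of 0.5 or 2 times the main one, averaging the measured probe sets of a gene, no suffixed probe sets, 8 times the floor or no minimum, and 1.5-fold and 3-fold rules.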

Additional observations from a re-analysis of the deposited data

How the results depend on the processing

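With 1 array per treatment and chip type no replicate could be left out, and no paired analysis was possible because no group has more than 1 sample per chip type. Counts of members at least 2-fold apart stayed within 1.5 times the main count in 68 of 77 cases. The exceptions concerned 3 comparisons. For Combo against anti-TCR the count was 1 in the main setting, 0 with probe sets of a gene averaged, 0 without suffixed probe sets, 4 with a 1.5-fold rule and 0 with a 3-fold rule. For CSA against anti-TCR it was 2, and 1 without suffixed probe sets, 5 with a 1.5-fold rule and 1 with a 3-fold rule. These counts leave out direction. With probe sets of a gene averaged the count for CSA stayed at 2, but the genes changed. It was then 0 higher and 2 lower (Egr2 and Egr3), against 1 higher (Egr4) and 1 lower (Egr2) in the main setting. For PKCi against mock it was 1, and 0 with 8 times the floor as minimum and 0 with a 3-fold rule. Of 348 single log2 ratios 332 moved by less than the technical SD and the others further. The sign changed in 3 cases, all for Egr4 without suffixed probe sets: to -0.0058 for CSA, -0.19 for Combo and, within the SD, -0.05 for PKCi, each against anti-TCR, by the choice of probe set. With the mean of its probe sets, Egr3 gave -1.56 for CSA against anti-TCR, past 2-fold. Ratios with a value under the floor followed the floor: Egr2 in anti-TCR against mock ran from 5.02 to 6.25 and Egr1 in PKCi against anti-TCR from -3.76 to -1.76. The other scalings changed no count of members. Signal over background limits Egr1, Egr2 and Egr3 with PKCi and with mock, and Nab2 with mock, where values lay near or below the floor. The Nab2 ratios to mock were smaller with 2 times the floor, by less than the technical SD. The number of arrays limits every value.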

Other observations

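Other zinc finger factors of GC-rich sites were a list of 8 genes, 7 of them on the arrays and 5 measured. With anti-TCR against mock none rose and 1 fell, with a median log2 ratio of -0.55. Over all genes 11.4% rose and 13.9% fell, with a median of -0.08. With 5 genes a count of 1 is not set apart from those shares. Zfp148 fell 2.37-fold from 757 to 319, and on further bright probe sets its log2 ratio was -0.61 and, on an r-suffixed one, -1.91. Vezf1 read 1080 and 553 (log2 ratio -0.97, and -0.23 on a further bright probe set), while Sp1 (-0.34) and Sp4 (-0.31), both on suffixed probe sets, lay within the SD. With CSA against anti-TCR none of the 5 passed the size rule. Zfp148 gave 0.66, Vezf1 0.68, Sp1 -0.37 and Sp4 0.06, and the median was 0.35. With PKCi and with Combo none passed it either as read by the brightest probe sets, at medians of 0.63 and 0.21. On a further bright probe set without a suffix, Sp4 did pass it with PKCi. It read 83.9 with anti-TCR and 361 with PKCi there, a log2 ratio of 2.10, so the reading of Sp4 depends on the probe set.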
